A study of Mus musculus with 36 samples.

Results

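Bulk RNA sequencing of Mlkl-/- mouse embryonic fibroblasts (MEFs) was compared with that of Mlkl-/- intestine taken at E18.5 (E, embryonic day), over all genes. The comparison used 6 of the 36 libraries of the series, namely every library labelled as untreated Mlkl-/- MEFs (3) and 3 untreated Mlkl-/- intestines that served as controls for embryos with the D387A form of caspase-8, which cannot be cleaved between its catalytic subunits. The study examined what cFLIP, encoded by Cflar, does to this form of caspase-8, and Mlkl-/- samples were its baseline in both tissues. Mlkl was deleted in both groups, so neither was wild type, and the labels give no other mutation in them. The mice had a C57BL/6N background.

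MEFs were dissociated from mid-gestation embryos after the head and internal organs had been taken out, and were then grown on gelatin in serum-containing medium for few passages. Such cultures hold the cells of the body wall and limbs that adhere and divide. The intestines were whole organs, frozen at collection, with epithelium, muscle, nerves, vessels and blood together. Tissue, embryonic stage and culture changed together between the groups and cannot be told apart here, and neither can library preparation, for which the study's methods give a different kit for each group while the labels give 1 kit for all. The labels number the libraries as biological replicates 1 to 3 of each group, and the p-values below measure the spread between these libraries. In bulk RNA, fewer cells of a type and less RNA per cell cannot be told apart either.

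Death receptors such as tumor necrosis factor receptor 1 assemble FADD, caspase-8 and cFLIP to start or hold back apoptosis, and pass to RIPK3 and MLKL for necroptosis when caspase-8 is inactive. Inflammasomes are a separate route, in which sensor proteins recruit the adaptor ASC (Pycard) and caspase-1 to cleave gasdermin D and interleukin-18. Interferons bind surface receptors that signal through JAK kinases and STAT factors to a large set of antiviral genes. Intestinal epithelium is known for high inflammasome and interferon lambda receptor expression, whereas fibroblasts are a standard cell for death receptor and type I interferon assays.

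Mlkl, the targeted gene, still gave reads in every library. Its level was 4.76, 9.85 and 8.12 RPKM (reads per kilobase of gene width, scaled to library size) in the 3 MEF libraries and 2.27, 2.25 and 2.53 RPKM in the intestines. The MEF libraries were all above the intestines, with a log2 fold change of 1.68 ± 0.252 (SE; edgeR quasi-likelihood test, Benjamini-Hochberg adjusted p = 0.000169). For the founder of its line with D387A caspase-8 and no Cflar or Mlkl, the study's methods place a deletion over exons 2 and 3 of the 11 exons of transcript Mlkl-201, which hold 22% of the gene's exonic bases in GENCODE M21. The methods also cite an earlier Mlkl knockout, and they do not say which allele each library analysed here carried. A figure legend describes the control intestines as littermates of embryos of the D387A genotype without Cflar and Mlkl, and it names no allele. The deposited counts are summed over the gene, so a loss of reads from these exons cannot be seen and the level does not test the label. Mlkl lies at chr8:111311797-111338177 of GRCm38, on the minus strand.

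Between 19713382 and 20961036 reads fell on genes in the intestines and between 21938647 and 32307629 in the MEFs, and their scaling factors lay between 0.948 and 1.06. The intestines had a read on 23816 to 24281 genes and the MEFs on 20514 to 21508. Xist, which marks a second X chromosome, was at 36.3 RPKM in MEF library 2 and at 36.3 and 46.2 RPKM in intestines 1 and 3, while the other 3 libraries carried the Y-linked genes, so sex was mixed within each group. The marker lists matched the labels. Summed over 13 fibroblast markers, MEFs had 8508 to 9183 RPKM and intestines 934 to 1044. Summed over 16 enterocyte markers, MEFs had 11.8 to 17.3 RPKM and intestines 33385 to 37816.

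The MEFs and the intestine differed across most of the transcriptome. Of 52636 genes listed, 17188 had enough reads to be tested, and 9436 of them (54.9%) passed a log2 fold change of 1 with an adjusted p under 0.05, which is what "called" means below. The MEFs were higher for 3932 genes (22.9%) and the intestine for 5504 (32%). At a looser reading, 14508 genes had an adjusted p under 0.05 and 14620 an unadjusted one. The 3 MEF values and the 3 intestine values did not overlap for 14876 genes (86.5%). The median log2 fold change over tested genes was -0.10, with quartiles at -1.59 and 0.92. Counts for any list below have to be read against these shares.

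Many genes were above a low level in 1 of the groups only. The intestine had 1875 genes at 1 CPM (reads scaled to a common library size) or more in all its libraries and below 1 CPM in every MEF library, and the reverse held for 445. A log2 fold change below -5 was fitted for 1426 genes, and one above 5 for 195. Among the 12457 genes at 1 CPM or more in all 6 libraries, 5592 were called (44.9%), with 3118 higher in MEFs (25%) and 2474 higher in intestine (19.9%). There the median was 0.20, with quartiles at -0.73 and 1.00, so among these genes more calls were higher in MEFs, whereas over all tested genes more were higher in intestine.

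**Figure D1:**
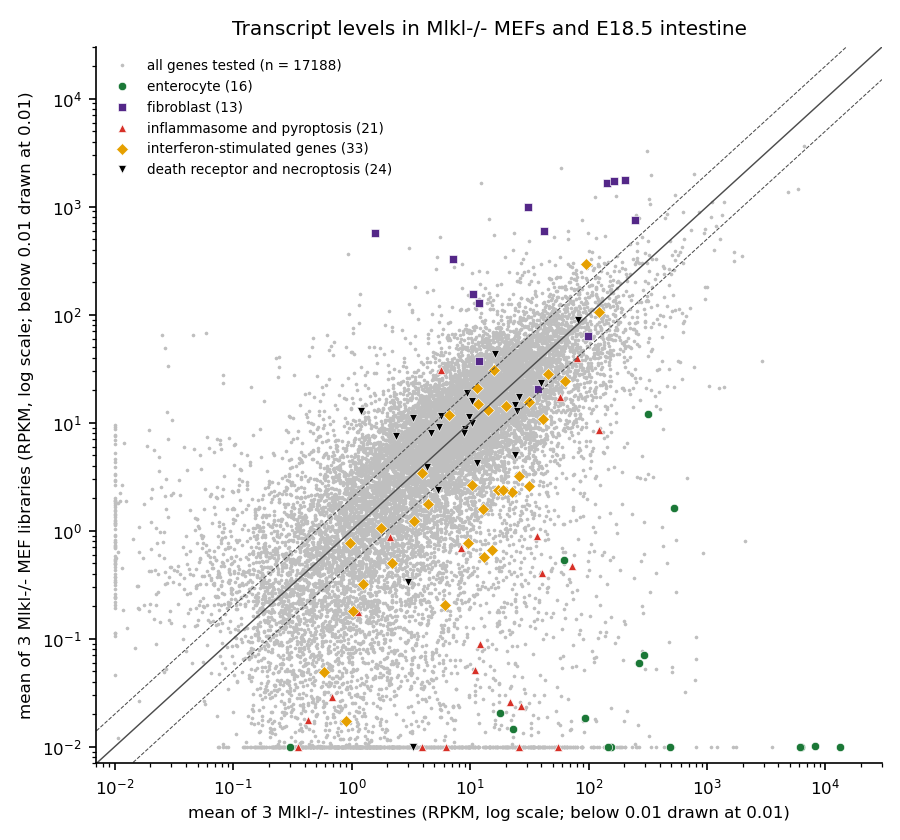
Mean RPKM of the 3 Mlkl-/- MEF libraries (vertical, log scale) against the mean of the 3 Mlkl-/- intestines (horizontal, log scale) for the 17188 tested genes (grey), with 5 gene lists in color. The solid line marks equal levels and the dashed lines a factor that corresponds to a log2 difference of 1. Enterocyte genes lie below the lower line, as do inflammasome genes except Nek7, and fibroblast markers lie mostly above the upper line. Death receptor genes lie on both sides of the diagonal, 14 of 24 of them not called.

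The genes with the largest falls and rises were known from absorptive epithelium on one side and from cartilage, limb and body patterning on the other. Apoa4, an apolipoprotein of chylomicrons, was the most abundant transcript of the intestine at 13524, 14156 and 12038 RPKM and gave 0 reads in the MEFs, a level at least 654500-fold lower (against a floor of 3 reads over the group). Fabp2 and Fabp1, which carry fatty acids in enterocytes, were at least 160117-fold and 93768-fold lower, and Rbp2, a retinol carrier, at least 78888-fold lower. The lipid transport gene Apoc3, the antibacterial surface protein gene Lypd8 and the brush border gene Cdhr5 were also at 0 reads in MEFs, with bounds of 41494-fold, 37984-fold and 37046-fold. Apoa1, another chylomicron apolipoprotein, had 1 read in the MEFs and 526317 in the intestines, a ratio of 687278 with an exact counting interval from 123352 upward to 2.71e+07. These 8 genes are known from the absorptive epithelium or its secreted products.

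On the MEF side, 6 of the 8 genes with the largest rise had 0 reads in all 3 intestines. Lhx9, a limb and gonad homeobox gene, had 1155, 1007 and 406 reads in the MEFs, at least 656-fold above the floor. Col10a1, the collagen of hypertrophic cartilage, had 1551, 488 and 320 reads and was at least 602-fold higher. The patterning genes Emx2, Irx1, Zic1 and En1 were at least 451-fold, 446-fold, 401-fold and 237-fold higher. The other two were Col2a1, the main cartilage collagen, and Tbx15, a limb and trunk mesenchyme factor. Tbx15 measured 45.0, 53.0 and 48.9 RPKM in MEFs and 0.0132, 0.0139 and 0.0531 RPKM in the intestines. Col2a1 measured 129, 31.7 and 31.3 RPKM against 0.0184, 0.0194 and 0.0371 RPKM. The Col2a1 level of MEF library 1 thus stood well above that of the other MEF libraries, and Col10a1 had the same order.

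Of the 10 genes with the highest levels per length in each group, H19 and mt-Nd1 were in both. In MEFs H19, an imprinted noncoding RNA of fetal tissues, was first at 3620 ± 789 RPKM (SD, n = 3), but it was higher still in intestine at 6577 ± 127. The galectin gene Lgals1 followed at 3247 RPKM, then the proteoglycan gene Bgn at 2258, smooth muscle actin (Acta2) at 2005 and the matrix gene Sparc at 1946 RPKM. In the intestine the same 4 genes measured 313, 58.0, 780 and 334 RPKM. The intestine's own order ran from Apoa4 and Apoa1 (13239 and 8124 RPKM) through H19 to Fabp1 and Fabp2 (6224 and 6085 RPKM).

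Death receptor and necroptosis genes were expressed at similar total levels in both tissues. Their summed level was 334 to 358 RPKM in the MEFs and 333 to 351 RPKM in the intestines. Of 26 listed genes, 24 were tested, and 5 were higher in MEFs, 5 higher in intestine and 14 not called, beside backgrounds of 22.9% and 32%. Their median log2 fold change was -0.06, beside -0.10 over all tested genes. Of the 22 at 1 CPM or more in all 6 libraries, 5 were higher in MEFs and 3 higher in intestine.

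Among receptors, Tnfrsf1a, which encodes tumor necrosis factor receptor 1, had the highest level of the list in both groups. It measured 85.3, 95.2 and 86.1 RPKM in MEFs and 82.3, 82.3 and 78.5 RPKM in intestine, and it was not called (log2 fold change 0.13, edgeR adjusted p = 0.0856). The groups did not overlap, yet they lay close together. Tnfrsf10b, the only TRAIL death receptor of the mouse, had the largest rise of the list, at 13.4, 12.6 and 12.7 RPKM against 1.28, 1.09 and 1.25 RPKM. Its log2 fold change was 3.41 ± 0.102 (edgeR adjusted p = 3.17e-09). Tnfrsf1b, the second tumor necrosis factor receptor, also rose, by 1.75 on the log2 scale. Fas, the receptor for Fas ligand, measured 8.29, 7.86 and 7.96 RPKM against 5.34, 4.81 and 3.97 RPKM and was not called, except with an offset for gene length (1.11).

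The ligands were scarce. Tnfsf10, which encodes TRAIL, had 3 reads over the 3 MEF libraries and 1082 in the intestines, where it measured 3.26, 3.97 and 2.64 RPKM. This is a ratio of 471 with a counting interval of 161 to 2287 (exact, 95%, counting error only). MEFs thus had the higher receptor transcript level and almost no ligand reads, and the intestine had the ligand and less of the receptor. Tnf and Fasl had too few reads to be tested, at no more than 0.213 and 0.0256 RPKM in any of the 6 libraries.

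The core genes of the death-inducing complex differed in direction. Fadd, the adaptor, was lower in MEFs, at 4.37, 4.38 and 3.90 RPKM against 12.04, 11.3 and 10.9 RPKM (log2 fold change -1.43 ± 0.0810, edgeR adjusted p = 1.76e-07). Casp8, the initiator caspase, measured 12.8, 16.2 and 14.6 RPKM in MEFs and 24.1, 24.5 and 23.5 RPKM in intestine, a log2 fold change of -0.72 that did not reach the threshold of 1 (edgeR adjusted p = 3.91e-05). Cflar, which encodes the caspase-8 partner cFLIP, ran the other way, at 11.2, 11.1 and 12.1 RPKM against 5.402, 6.05 and 5.70 RPKM. Its log2 fold change of 1.00 ± 0.0673 (edgeR adjusted p = 5.84e-07) sat on the threshold, and the call was lost under several other scalings. For each of these 3 genes the MEF and intestine values did not overlap, as was so for 86.5% of all tested genes. Both caspase-8 and cFLIP genes are on chromosome 1, at chr1:58795374-58847503 (Casp8, plus strand) and chr1:58711508-58758884 (Cflar, plus strand), and Fadd lies at chr7:144577318-144582463 on the minus strand, all in GRCm38.

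On the necroptosis side, Ripk3, the kinase that activates MLKL, was higher in MEFs at 37.9, 43.1 and 48.1 RPKM against 15.4, 17.2 and 16.2 RPKM (log2 fold change 1.40 ± 0.0945, edgeR adjusted p = 6.1e-07). Zbp1, a nucleic acid sensor that can engage RIPK3, was lower in MEFs at 0.132, 0.376 and 0.489 RPKM against 2.41, 3.75 and 2.76 RPKM. Its log2 fold change was -3.21, and the groups stood far apart. Tradd, an adaptor of tumor necrosis factor receptor 1, measured 4.57, 5.34 and 5.16 RPKM against 25.1, 22.3 and 24.3 RPKM. The brake Tnfaip3 (A20) was likewise lower in MEFs, with a log2 fold change of -1.18 beside -2.25 for Tradd. Components of the linear ubiquitin complex did not reach the threshold, with log2 fold changes of -0.96 for Sharpin, -0.77 for Rbck1 and -0.14 for Rnf31.

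Inflammasome and pyroptosis genes were almost all higher in intestine. Their summed level was 94.1 to 103 RPKM in MEFs and 590 to 600 RPKM in the intestines. Of 28 listed genes, 21 were tested, with 20 higher in intestine and 1 higher in MEFs. Most of them passed the read filter through the intestine alone, so they had to differ and the count is only a description, and 10 of the 28 had 0 reads in all MEF libraries. Only 6 were at 1 CPM or more in all 6 libraries, of which 5 were higher in intestine and 1 in MEFs, against 19.9% and 25% of all such genes. The median log2 fold change was -6.61, or -5.38 when genes with 0 MEF reads were set at the bound their floor allows.

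Casp1, the inflammatory caspase and a gene the study deleted in other mice, measured 0.445, 0.407 and 0.354 RPKM in MEFs and 38.6, 40.2 and 42.1 RPKM in intestine. This was a log2 fold change of -6.61 ± 0.112 (edgeR adjusted p = 1.72e-10). Casp1 lies at chr9:5298517-5307265 of GRCm38, plus strand. Its adaptor Pycard was at 0.426, 0.588 and 0.405 RPKM against 75.2, 75.3 and 69.0 RPKM, a log2 fold change of -7.25. Both central components were below 1 RPKM in every MEF library and far above it in every intestine.

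Sensors followed the same order. Nlrp6, a sensor known from intestinal epithelium, had 0 MEF reads and 57.5, 57.9 and 50.7 RPKM in intestine, at least 7584-fold lower in MEFs. Naip1 and Nlrp9b also had 0 MEF reads, with bounds of 3928-fold and 597-fold. Nlrc4, the partner of the NAIP proteins, measured 0.0414, 0.0618 and 0.0501 RPKM against 11.5, 10.8 and 10.6 RPKM. NAIP genes are near-identical neighbors, so the split of reads among Naip1, Naip2, Naip5 and Naip6 is uncertain, and all 4 were lower in MEFs. Nlrp3, the sensor most used in macrophages, was too low to test in either tissue, at 0.0704, 0.0501 and 0.0593 RPKM in MEFs and 0.197, 0.0610 and 0.210 RPKM in intestine.

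Substrates and effectors came next. Gsdmd, the pore-forming gasdermin, had the highest level of the list in intestine, at 118, 132 and 118 RPKM, and 6.56, 10.1 and 9.10 RPKM in MEFs (log2 fold change -3.84 ± 0.143, edgeR adjusted p = 1.19e-08). Unlike Casp1 and Pycard, it was above 1 RPKM in every MEF library. Il18 fell by 5.38 on the log2 scale, and Il1a had 0 MEF reads against 3.51 to 4.17 RPKM, at least 211-fold lower. Ninj1, which ruptures the membrane late in lytic death, measured 19.5, 15.1 and 17.1 RPKM against 59.7, 58.1 and 54.7 RPKM. Txnip, a redox gene linked to NLRP3, had the highest MEF level of the list at 39.3 ± 2.60 RPKM (SD, n = 3), below 80.6 ± 11.6 in intestine. The single rise was Nek7, a mitotic kinase that also assists NLRP3, at 27.8, 31.7 and 32.7 RPKM against 5.18, 5.93 and 5.95 RPKM (log2 fold change 2.43).

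Intrinsic apoptosis genes were present in both groups at summed levels of 580 to 614 RPKM in MEFs and 660 to 676 RPKM in intestine. Of 26 listed genes, 24 were tested, with 2 higher in MEFs and 10 higher in intestine, and a median log2 fold change of -0.20. Of the 21 at 1 CPM or more everywhere, 2 were higher in MEFs and 7 in intestine, beside 25% and 19.9% of all such genes. Bax, which permeabilizes mitochondria, had the highest MEF level at 171, 176 and 184 RPKM, above 85.2, 83.4 and 80.2 RPKM in intestine (log2 fold change 1.10 ± 0.0554, edgeR adjusted p = 8.35e-08), a call lost on library totals and with a stricter read filter. Its relative Bak1 had the highest intestine level and the opposite direction, at 47.8, 47.4 and 51.4 RPKM against 114, 110 and 109 RPKM (-1.18, or -0.91 and not called against the other Mlkl-/- intestines described at the end). Trp53, the stress-activated factor, was the other rise, at 85.2, 87.8 and 94.8 RPKM against 39.8, 35.7 and 34.2 RPKM (1.29).

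Casp6, a caspase gene, was lower in MEFs, at 11.4, 10.8 and 11.1 RPKM against 82.5, 86.4 and 82.4 RPKM in intestine, with a log2 fold change of -2.92. Casp9, the initiator caspase of the mitochondrial route, fell by 1.05 on the log2 scale, a call lost without MEF library 3 and under glmTreat. Apaf1, the platform of this caspase, measured 16.6 RPKM against 8.74 RPKM on average without reaching the threshold (0.92). The largest fall was Bik, a BH3-only gene, at -5.24 from a MEF level of no more than 0.153 RPKM. The antiapoptotic gene Bcl2l1 was not called, at 29.8 ± 1.39 RPKM in MEFs and 21.7 ± 1.73 in intestine (SD, n = 3).

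**Figure D2:**
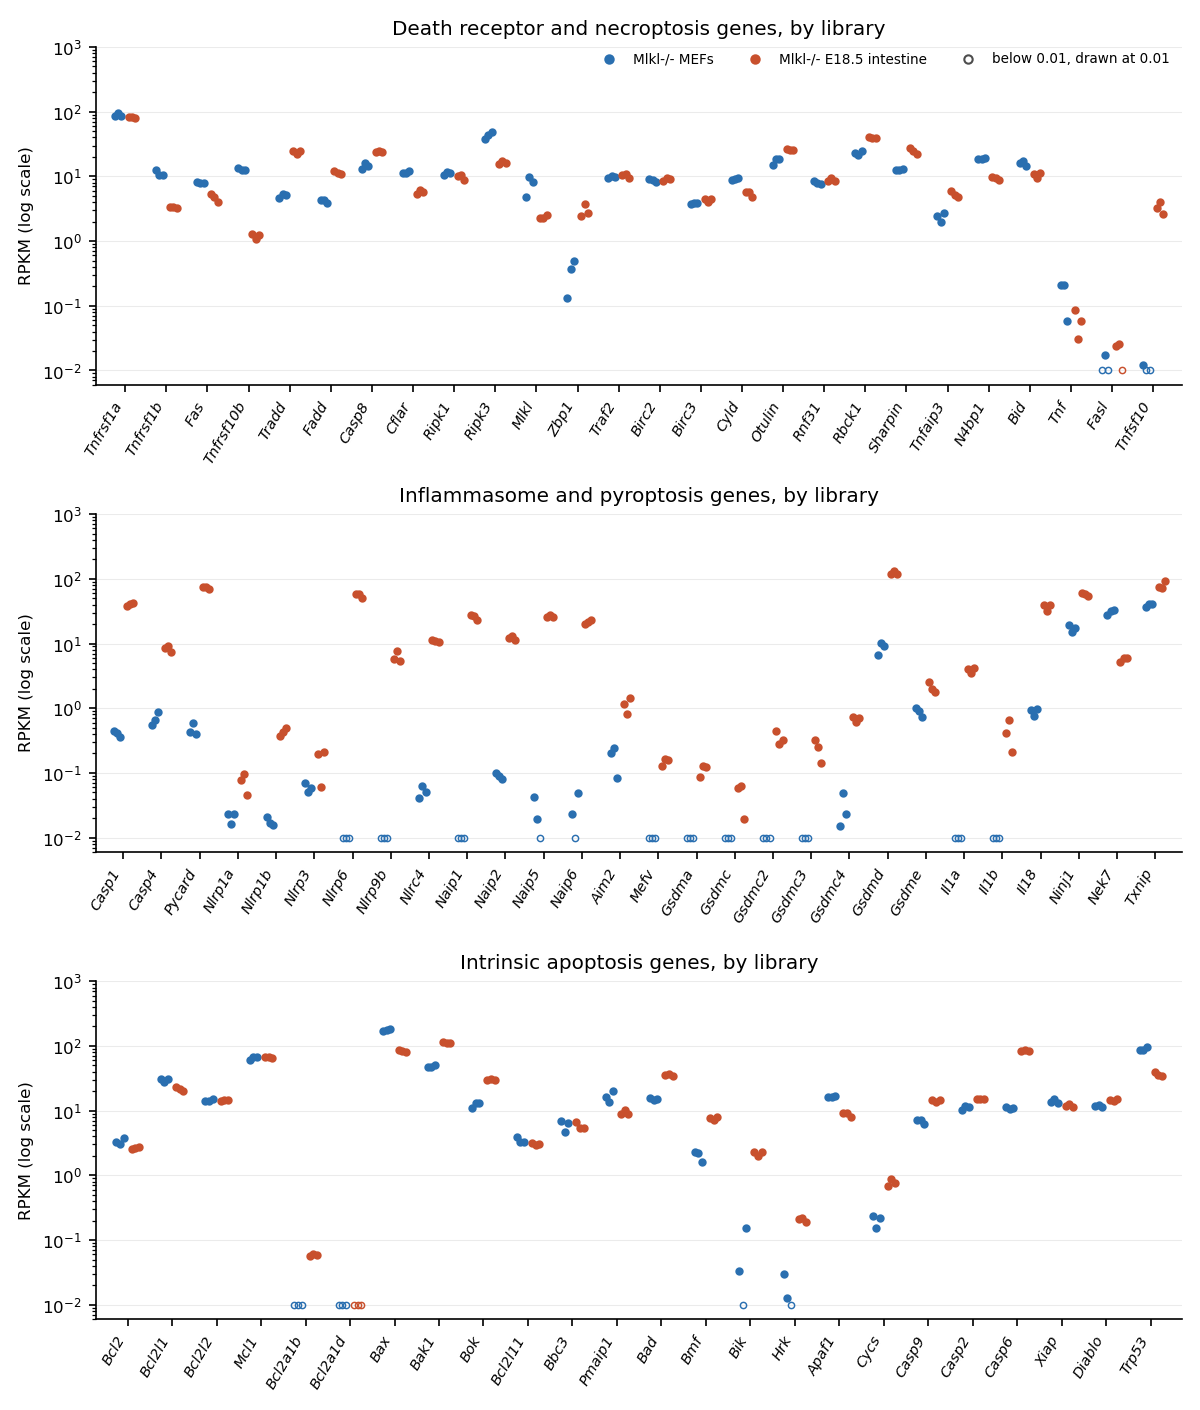
RPKM (log scale) of listed death receptor, inflammasome and intrinsic apoptosis genes in each of the 3 Mlkl-/- MEF libraries (blue) and 3 Mlkl-/- intestines (orange), with open circles for values below 0.01 drawn at 0.01. Replicates of Tnfrsf1a and Casp1 lie close together, while those of some genes with low levels, such as Zbp1 in MEFs, are spread. Most death receptor genes have both colors at a like height, such as Tnfrsf1a at 78.5 to 95.2 RPKM, whereas most inflammasome genes are separated by a wide gap, such as Casp1 at 0.354 to 0.445 RPKM in MEFs and 38.6 to 42.1 in intestine.

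Interferon genes themselves were almost silent. Ifnb1 and Ifnl2 had 0 reads in all 6 libraries, and Ifng and Ifnl3 had reads in no more than 1 intestine each. Genes that receive or relay interferon were mostly higher in intestine. Of 26 listed genes, 22 were tested, with 12 higher in intestine, 1 higher in MEFs and a median of -1.16. At 1 CPM or more in all 6 libraries there were 20, with 10 higher in intestine and 1 in MEFs, beside backgrounds of 19.9% and 25%.

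The receptors differed by interferon type. Ifnar1, the type I receptor chain and a gene the study deleted in other mice (chr16:91485238-91507441, plus strand, GRCm38), measured 29.9, 30.5 and 26.6 RPKM in MEFs and 19.6, 20.1 and 20.6 RPKM in intestine. The MEF values were all higher, but the log2 fold change of 0.53 did not reach the threshold (edgeR adjusted p = 4.29e-05). Ifnlr1, the interferon lambda chain, was at 0.182, 0.113 and 0.0920 RPKM against 9.39, 9.16 and 9.26 RPKM, a log2 fold change of -6.10 ± 0.179 (edgeR adjusted p = 2.82e-09). Its partner Il10rb had the highest intestine level of the list, at 78.6, 78.7 and 73.5 RPKM against 14.3, 13.4 and 15.3 RPKM in MEFs (-2.42). The interferon gamma chains Ifngr1 and Ifngr2 were also lower in MEFs, by 1.29 and 1.47 on the log2 scale. The type I chain was thus not called, whereas the lambda chain was at no more than 0.182 RPKM in any MEF library.

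Among relays, Jak1 was the only gene of the list higher in MEFs, and it had the highest MEF level. It measured 75.7, 91.4 and 83.3 RPKM against 24.4, 25.7 and 27.4 RPKM (log2 fold change 1.69 ± 0.0869, edgeR adjusted p = 9.17e-08). Its partners Jak2 and Tyk2 split, with a log2 fold change of 0.73 that was not called for Jak2 and a call at -1.02 for Tyk2 that was lost without MEF library 2, MEF library 3 or intestine 1, without a read filter, with 24 libraries in the fit and under glmTreat. Irf8, an interferon regulatory factor of myeloid and lymphoid cells, had the largest fall of the list, at -7.03. Irf7, which amplifies interferon responses, measured 1.14, 2.22 and 3.12 RPKM in MEFs and 36.3, 61.4 and 35.0 RPKM in intestine (-4.40).

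Most interferon-stimulated genes were lower in MEFs, and 1 abundant member was higher. All 33 were tested, with 21 higher in intestine, 1 higher in MEFs and 11 not called, and a median log2 fold change of -1.92. Of the 24 at 1 CPM or more in all libraries, 13 were higher in intestine and 1 in MEFs, beside 19.9% and 25% of all such genes. Their summed level overlapped, at 546 to 643 RPKM in MEFs and 616 to 804 RPKM in intestine. Rsad2, an antiviral radical enzyme, measured 0.235, 0.179 and 0.204 RPKM against 2.90, 8.35 and 7.16 RPKM (log2 fold change -4.88 ± 0.423, edgeR adjusted p = 3.57e-06). Mx1, an antiviral GTPase, had the largest fall at -5.81, from levels of 0.637 to 1.07 RPKM in intestine. Ifit1, which binds foreign RNA caps, measured 1.37, 2.45 and 3.89 RPKM against 24.8, 46.5 and 22.5 RPKM (-3.64). Ifitm3, which blocks virus entry at membranes, was the exception, at 265, 321 and 288 RPKM in MEFs and 101, 87.0 and 95.2 RPKM in intestine (1.62 ± 0.0870, edgeR adjusted p = 1.22e-07). Its neighbor Ifitm2 had the highest intestine level of the list and was not called, at 105, 108 and 106 RPKM against 124, 119 and 123 RPKM (-0.19, with the opposite sign against the other Mlkl-/- intestines and with an offset for gene length).

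The start regions of these 3 genes are shown because 2 of them were low and 1 was high in MEFs although all carry the letters of an interferon response element. Sequences are from RefSeq on GRCm38.p6, 250 bases before to 50 bases after the annotated start, 5′ to 3′ on the gene's strand, with matches to TTTCNNTTT on either strand in capitals. Rsad2 is chr12:26456403-26456702 (minus strand), Ifit1 chr19:34640639-34640938 (plus strand) and Ifitm3 chr7:141010695-141010994 (minus strand).
Rsad2: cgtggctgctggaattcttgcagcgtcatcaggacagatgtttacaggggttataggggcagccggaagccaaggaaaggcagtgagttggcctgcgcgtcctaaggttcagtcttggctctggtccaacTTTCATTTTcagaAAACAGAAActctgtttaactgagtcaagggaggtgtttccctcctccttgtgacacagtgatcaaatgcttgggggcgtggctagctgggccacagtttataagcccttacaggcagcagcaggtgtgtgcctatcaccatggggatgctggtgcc
Ifit1: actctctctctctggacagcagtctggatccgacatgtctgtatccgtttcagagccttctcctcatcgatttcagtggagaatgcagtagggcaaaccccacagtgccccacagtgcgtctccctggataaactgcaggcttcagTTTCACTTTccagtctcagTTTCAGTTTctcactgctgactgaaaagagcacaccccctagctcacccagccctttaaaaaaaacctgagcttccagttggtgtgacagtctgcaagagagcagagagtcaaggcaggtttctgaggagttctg
Ifitm3: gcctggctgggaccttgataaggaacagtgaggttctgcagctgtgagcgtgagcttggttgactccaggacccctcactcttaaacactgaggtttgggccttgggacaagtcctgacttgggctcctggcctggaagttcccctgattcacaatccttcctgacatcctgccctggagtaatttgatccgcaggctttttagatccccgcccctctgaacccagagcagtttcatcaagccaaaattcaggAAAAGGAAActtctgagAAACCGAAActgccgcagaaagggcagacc
The Rsad2 matches begin 120 and 107 bases before the start, the Ifit1 matches 104 and 85 bases before it, and the Ifitm3 matches at bases 3 and 20 after it. Of the 27 listed interferon-stimulated genes with a RefSeq window, 19 (70.4%) held the motif, beside 12.1% of 27025 genes and 10.6% of 32851 windows. For interferon signaling genes the share was 18.2% of 22. A match to these letters is a description of the window and not a measured binding site.

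Within each tissue, interferon-stimulated genes moved together among the libraries. Intestine 2 was the highest of the 3 intestines for 28 of the 33 genes (84.8%), where 32.2% of all tested genes had that library highest. MEF library 1 was the lowest MEF library for 25 of the 33 (75.8%), against 33% of all tested genes, and MEF library 3 the highest for 22 (66.7%), against 32.6%. The same libraries stood apart for class I antigen presentation, where intestine 2 was highest for 10 of 10 genes. Isg15, a ubiquitin-like modifier, shows how far this spread reached, at 7.98, 15.4 and 23.1 RPKM in MEFs and 21.7, 45.9 and 26.9 RPKM in intestine. Its groups overlapped, and its log2 fold change of -1.04 passed narrowly (edgeR adjusted p = 0.0273) and was -0.67 without intestine 2 and -0.70 without MEF library 1, in neither case a call. Among all tested genes, 38 were called although the groups overlapped. Marker lists of other cell types were not evenly spread over the intestines either. Intestine 2 was highest for 4 of 4 tested neutrophil genes, with S100a8 at 11.3 RPKM there and at 1.54 and 3.31 RPKM in the other intestines, and for 6 of 6 endothelial genes. It was highest for 4 of 10 macrophage genes and 2 of 4 hepatocyte genes, where intestine 1 was highest for as many of each. Their part in the interferon pattern was not tested.

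**Figure D3:**
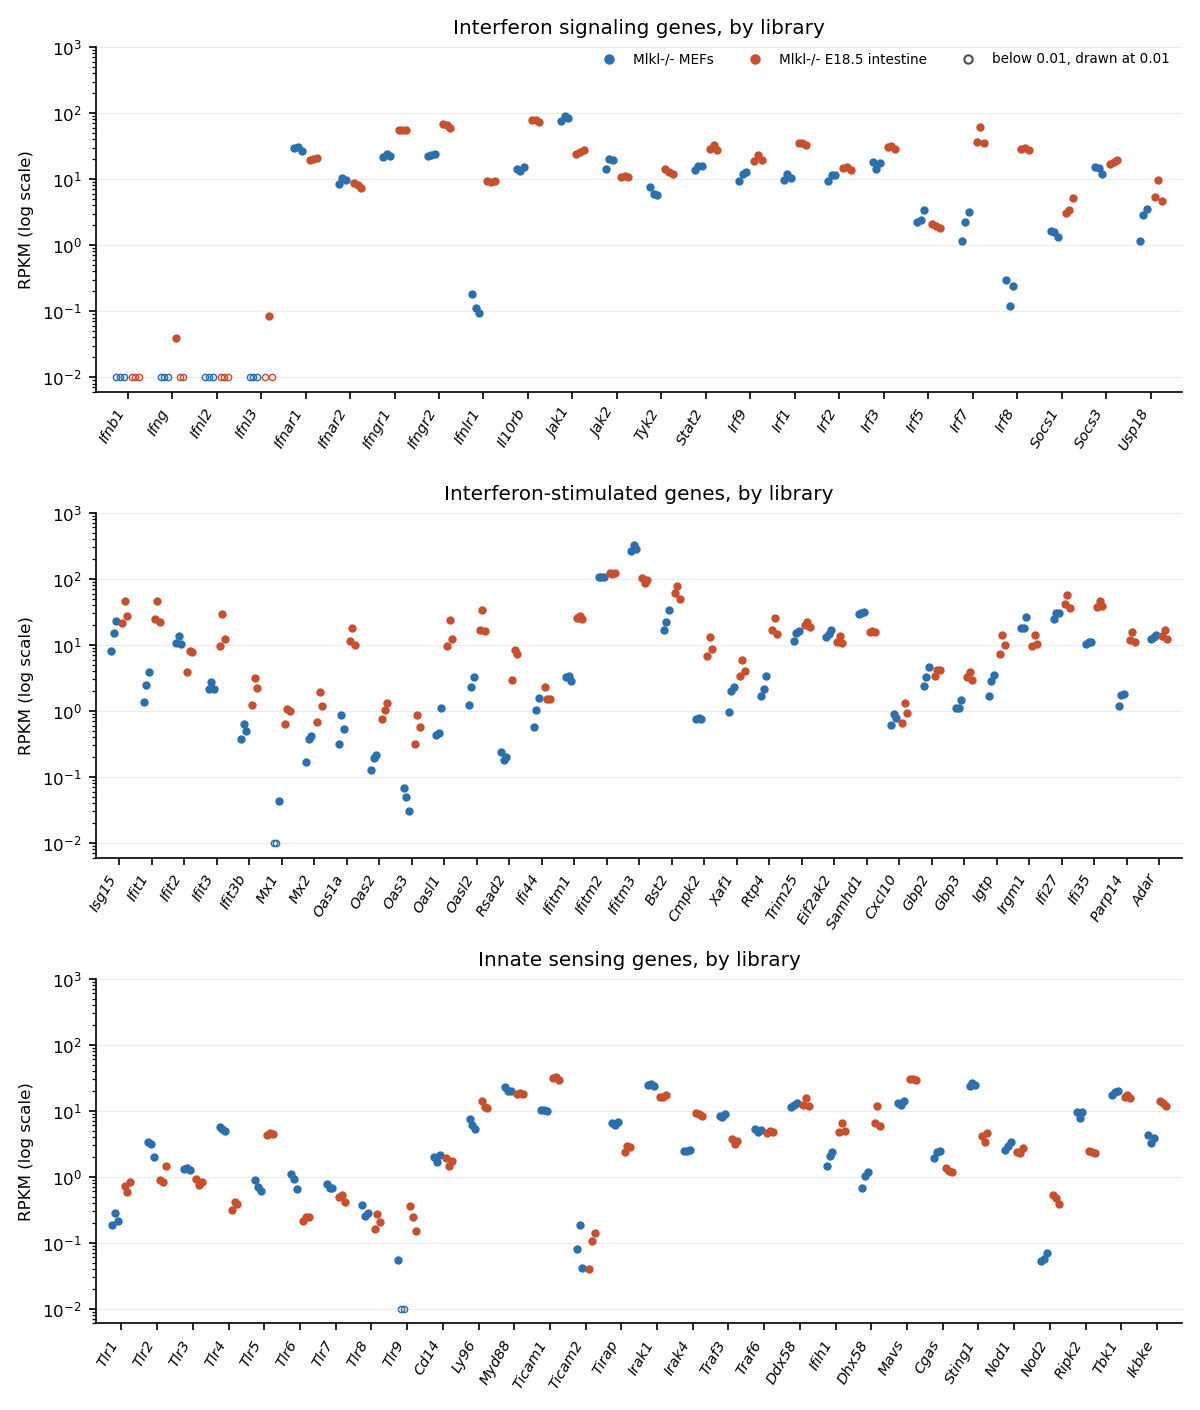
RPKM (log scale) of interferon signaling, interferon-stimulated and innate sensing genes in each of the 3 Mlkl-/- MEF libraries (blue) and 3 Mlkl-/- intestines (orange), with open circles for values below 0.01 drawn at 0.01. Interferon-stimulated genes are spread within each group, with intestine 2 on top of the orange points for 28 of 33 genes, and Ifitm3 at 265 to 321 RPKM in MEFs stands above its intestine values of 87.0 to 101.

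Class I antigen presentation genes were also mostly higher in intestine. All 10 were tested, with 6 higher in intestine and 1 higher in MEFs, beside 32% and 22.9% of all tested genes. The median was -2.22. Their summed level was 432 to 514 RPKM in MEFs and 1124 to 1262 RPKM in intestine. H2-K1, a classical class I heavy chain, measured 16.7, 23.3 and 22.8 RPKM in MEFs and 300, 335 and 288 RPKM in intestine (log2 fold change -3.88 ± 0.139, edgeR adjusted p = 9.14e-09). The immunoproteasome subunit Psmb9 had the largest fall, at -5.49, and Psmb8 and Psmb10 fell by 3.05 and 2.98. In contrast, the transporter genes Tap1 and Tap2 were not called, at -0.53 and -0.77. Nlrc5, the transactivator of class I genes, was the rise, at 0.571, 0.651 and 0.723 RPKM against 0.214, 0.262 and 0.210 RPKM (1.498, or 0.82 and not called with an offset for gene length). Class I genes are near-identical neighbors, and reads were kept by the authors only where they aligned uniquely, so these levels are uncertain.

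Innate sensing genes were divided between the tissues. Of 30 listed genes, 29 were tested, with 7 higher in MEFs and 10 higher in intestine, shares near the backgrounds of 22.9% and 32%, and a median of 0.19. Their summed level was 186 to 190 RPKM in MEFs and 195 to 213 RPKM in intestine. Sting1, the adaptor of cytosolic DNA sensing, had the highest MEF level, at 23.97, 26.0 and 24.5 RPKM against 4.10, 3.40 and 4.63 RPKM in intestine (log2 fold change 2.62 ± 0.109, edgeR adjusted p = 2.43e-08). The DNA sensor Cgas, which makes the STING ligand, measured 1.94, 2.34 and 2.42 RPKM against 1.35, 1.24 and 1.17 RPKM and was not called (0.83). Cgas was called higher in MEFs against the other Mlkl-/- intestines (1.20) and with both groups of intestines pooled (1.04).

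Genes of RNA sensing were divided as well. Dhx58 and Ifih1, which encode the sensors LGP2 and MDA5, fell by 3.08 and 1.47 on the log2 scale, and their adaptor Mavs fell by 1.17, from 30.6, 29.7 and 29.1 RPKM in intestine to 13.2, 12.4 and 14.1 RPKM. Ddx58, which encodes the sensor RIG-I, was not called, at -0.11, with the opposite sign against the other intestines, with both groups pooled and without intestine 2, and neither were the RNA receptors Tlr3 (0.63), Tlr7 (0.57) and Tlr8 (0.50). Dhx58 is itself an interferon-responsive gene, and intestine 2 was again highest, at 11.8 RPKM beside 6.48 and 5.81 RPKM. Among Toll-like receptors, Tlr4, the endotoxin receptor, had the largest rise, at 5.62, 5.35 and 4.96 RPKM in MEFs against 0.309, 0.417 and 0.390 RPKM (3.84 ± 0.142, edgeR adjusted p = 1.14e-08). Tlr2 and Tlr6, which pair to sense lipopeptides, rose by 1.43 and 1.94. Tlr5, the flagellin receptor, fell by 2.57, and Tlr9, a DNA receptor, had the largest fall at -3.51 from levels of 0.150 to 0.364 RPKM. The adaptor Ticam1 had the highest intestine level of the list, at 31.0, 32.8 and 28.8 RPKM against 10.3, 10.4 and 9.87 RPKM (-1.60). Of the intracellular peptidoglycan sensors, Nod2 fell by 2.96, while Ripk2, the kinase downstream of it, rose by 1.93.

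Few NF-kB pathway genes were called. All 14 were tested and all were at 1 CPM or more in every library, with 1 higher in MEFs, 3 higher in intestine and 10 not called, beside 44.9% called among all such genes. Their summed level was 160 to 178 RPKM in MEFs and 152 to 163 RPKM in intestine. Rel, an NF-kB subunit, rose by 2.05, at 2.77, 2.79 and 2.33 RPKM against 0.685, 0.597 and 0.628 RPKM. The inhibitors and modulators Bcl3, Tnip1 and Nfkbib fell by 1.52, 1.23 and 1.21, and Nfkbib lost its call against the other Mlkl-/- intestines (-0.86) and under glmTreat. Rela, the main subunit, measured 32.1, 31.6 and 36.7 RPKM against 20.3, 19.6 and 18.49 RPKM and was not called (0.78), but was called against the other intestines (1.05).

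A list of inflammatory genes came from the study, which named most of them from mutant intestines set against Mlkl-/- controls that include the intestines used here. Some, among them Mmp9, Ccl5 and Nfkbia, it named from mutant MEFs set against Mlkl-/- MEFs. The directions of this list here are therefore no independent evidence. Of its 26 genes, 15 had enough reads to be tested, with 5 higher in MEFs, 7 higher in intestine and a median of -0.39. Only 3 were at 1 CPM or more in all libraries, 1 of them called. Chemokines led the MEF side. Cxcl5, a neutrophil attractant, measured 19.6, 33.9 and 15.6 RPKM in MEFs and 0.0894, 0.0943 and 0.0601 RPKM in intestine (log2 fold change 8.09 ± 0.459, edgeR adjusted p = 1.8e-07). Ccl7, a monocyte attractant, measured 21.7, 46.7 and 55.3 RPKM against 0.293, 0.309 and 0.709 RPKM (6.53). Cxcl1, another neutrophil attractant, was higher in MEFs by 5.26 on the log2 scale. Il6, an acute phase cytokine, had 130 MEF reads against 3 in intestine, a ratio of 33.2 with an exact counting interval of 11.1 to 163. All MEF values of these 4 genes lay above all intestine values, where 86.5% of all tested genes had groups that did not overlap.

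On the intestine side of that list, the gelatinase Mmp9 measured 0.260, 0.384 and 0.667 RPKM in MEFs and 6.36, 6.47 and 5.59 RPKM in intestine (-3.86). The interferon-induced genes Ifitm1, Oas3 and Zbp1 fell by 3.01, 3.49 and 3.21, and the T cell chemokine Ccl5 by 2.78. Mx1, given above, and Nos2, the inducible nitric oxide synthase with 0 MEF reads (at least 20.5-fold lower), made up the 7. The remaining 11 genes of the list, among them Il1b, Gzmb, Acod1 and Prf1, were below the read filter, at no more than 0.659 RPKM in any library.

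**Figure D4:**
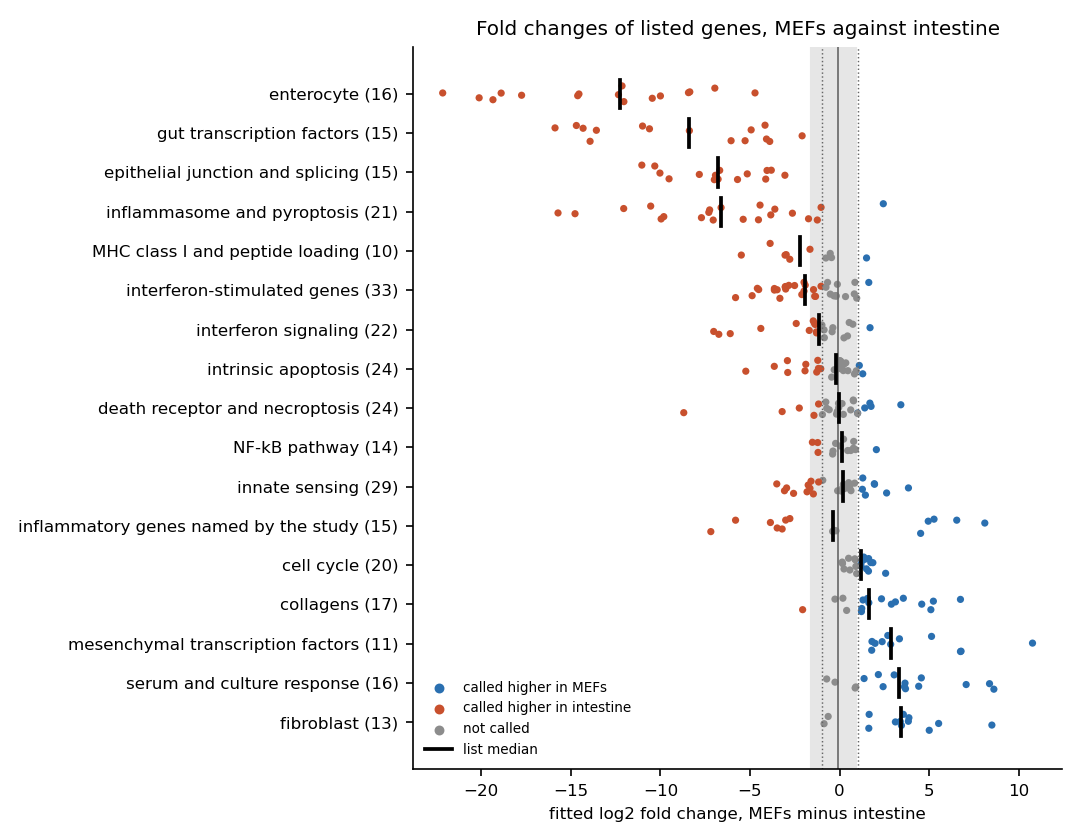
Fitted log2 fold change, MEFs minus intestine, of each tested member of 17 gene lists (points; member number in parentheses), blue where called higher in MEFs, orange where called higher in intestine and grey where not called, with the list median as a black bar. The grey band spans the quartiles of all 17188 tested genes (-1.59 to 0.92), the line inside it their median and the dotted lines the threshold of 1 in either direction. List medians run from -12.24 for enterocyte genes to 3.45 for fibroblast markers, and those of death receptor (-0.06), NF-kB (0.13) and innate sensing genes (0.19) lie near the all-gene median of -0.10.

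Enterocyte genes, gut transcription factors and epithelial junction and splicing genes were higher in intestine, and most members were below 1 CPM in at least 1 library. Such genes could pass the read filter through the intestine alone, so the counts are a description only. Only 2 enterocyte genes, 4 gut factors and 7 junction and splicing genes were at 1 CPM or more in all libraries. All of these were higher in intestine, beside 19.9% of all such genes. All 16 enterocyte genes were higher in intestine, with a median of -12.24 and 5 of them at 0 reads in MEFs. Of the 15 gut transcription factors, 15 were higher in intestine (median -8.38, or -7.79 with bounds), and 4 had 0 MEF reads. Cdx2, the master factor of intestinal identity, had 0 MEF reads and 144, 144 and 127 RPKM in intestine, at least 8513-fold lower in MEFs. Hnf4a, a nuclear receptor of absorptive cells, had 2 reads over the 3 MEF libraries and 146, 141 and 128 RPKM in intestine, a ratio of 24640 with an exact counting interval of 6821 to 203470. Of 15 junction and epithelial splicing genes, 15 were higher in intestine, with a median of -6.78. Cdh1 (E-cadherin) measured 0.674, 0.727 and 1.49 RPKM against 118, 110 and 112 RPKM, and Krt19 measured 22.8, 19.7 and 17.6 RPKM against 358, 313 and 329 RPKM. Krt19 was thus read in every MEF library, unlike Cdx2.

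The start regions of 2 enterocyte genes that were silent in MEFs and abundant in intestine are given as examples of promoters that the hepatocyte nuclear factors are known to use. Fabp1 (6161, 6518 and 5992 RPKM in intestine) is shown from chr6:71199629-71199928, plus strand, with a match to GTTAATNNT, an HNF1 half-site, in capitals. Alpi, the intestinal alkaline phosphatase (503, 509 and 449 RPKM, at least 30999-fold lower in MEFs), is shown from chr1:87101557-87101856, minus strand, with a match to CAAAGTCCA, an HNF4 site, in capitals. Both are RefSeq windows on GRCm38.p6, 5′ to 3′ on the gene's strand, and both strands were searched. The Alpi window also holds TTTCNNTTT, left in lower case here.
Fabp1: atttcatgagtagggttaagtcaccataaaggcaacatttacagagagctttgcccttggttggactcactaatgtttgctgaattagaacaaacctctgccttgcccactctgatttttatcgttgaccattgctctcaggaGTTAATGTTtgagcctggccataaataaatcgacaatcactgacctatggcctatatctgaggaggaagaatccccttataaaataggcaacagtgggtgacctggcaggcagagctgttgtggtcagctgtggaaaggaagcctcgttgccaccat
Alpi: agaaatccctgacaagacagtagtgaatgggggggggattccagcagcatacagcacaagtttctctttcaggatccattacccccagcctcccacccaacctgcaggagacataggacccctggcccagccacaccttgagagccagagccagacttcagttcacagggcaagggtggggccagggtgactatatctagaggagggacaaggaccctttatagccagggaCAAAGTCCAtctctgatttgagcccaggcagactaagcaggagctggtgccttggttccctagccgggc
The match lies 107 bases before the start in Fabp1 and 19 bases before it in Alpi. In the same windows GTTAATNNT occurred in 2.57% and CAAAGTCCA in 0.475% of 32851, or in 2.99% and 0.555% of 27025 genes. Each was found in 1 of the 16 enterocyte genes. The absence of these letters from the other windows says nothing of either factor's binding.

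Mesenchymal genes were higher in MEFs. All 11 mesenchymal transcription factors were higher in MEFs, with a median of 2.84. Of these, 7 were at 1 CPM or more in all libraries, and all 7 were called higher in MEFs, beside 25% of all such genes. The others could pass the read filter through the MEFs alone, so their count is a description only. Prrx1, a limb and body wall factor, measured 76.4, 78.9 and 74.96 RPKM in MEFs and 2.07, 2.22 and 2.31 RPKM in intestine (log2 fold change 5.12 ± 0.0817, edgeR adjusted p = 1.55e-10). Snai2, Zeb1 and Zeb2, known repressors of epithelial genes, were within a smaller range, at 1.97, 1.79 and 1.801. Collagens were higher in MEFs for 13 of 17 genes and higher in intestine for 1, with a median of 1.63, and all 17 were at 1 CPM or more in every library (background 25% and 19.9%). Their summed level was 6200 to 7132 RPKM against 1095 to 1195 RPKM. Col1a1, the main fibrillar collagen, measured 1911, 1483 and 1875 RPKM against 199, 209 and 203 RPKM (3.11). The exception was Col15a1, a basement membrane collagen, at 2.72, 3.38 and 3.95 RPKM against 13.9, 13.8 and 14.2 RPKM (-2.07).

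Of the 13 fibroblast markers, 11 were higher in MEFs and none in intestine, beside 22.9% and 32% of all tested genes. The median was 3.45. S100a4, a calcium-binding protein gene, had the largest difference at 8.49. The proteoglycan genes Lum and Dcn were not called. Lum, a proteoglycan of resident fibroblasts, measured 27.3, 24.1 and 9.41 RPKM in MEFs and 31.7, 40.004 and 40.2 RPKM in intestine. Its log2 fold change was -0.87, and MEF library 3 was the lowest. Dcn measured 71.3, 73.7 and 44.9 RPKM against 87.5, 104 and 105 RPKM, a log2 fold change of -0.64 that had the opposite sign against the other Mlkl-/- intestines.

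Genes known to respond to serum, substrate stiffness and culture stress were higher in MEFs for 12 of 16, with none higher in intestine and a median of 3.33. Over all tested genes the shares were 22.9% and 32%. Thbs1, a matrix glycoprotein, measured 1633, 1504 and 1794 RPKM against 11.5, 12.9 and 12.7 RPKM (log2 fold change 7.05 ± 0.12, edgeR adjusted p = 1.76e-10). The YAP targets Ccn1, Ccn2 and Ankrd1 rose by 4.55, 4.41 and 8.36. The cell cycle inhibitor Cdkn1a rose by 2.42, Mdm2, which encodes a ligase for p53, by 2.16 and the cyclin gene Ccng1 by 3.04. Cdkn2a, which accumulates with passage, measured 5.34, 3.90 and 4.68 RPKM against 0.280, 0.169 and 0.646 RPKM (3.64). MEF library 3 was the highest MEF library for 13 of the 16. The immediate early genes Fos and Jun were not called, at -0.72 and -0.26.

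Cell cycle genes had positive log2 fold changes for 20 of 20, of which 11 were called and none in the other direction, with a median of 1.17. All 20 were at 1 CPM or more in all libraries, where 25% of genes were higher in MEFs. Rrm2, a subunit of ribonucleotide reductase, measured 91.8, 108 and 101 RPKM against 17.7, 17.02 and 16.3 RPKM (2.56 ± 0.0768, edgeR adjusted p = 3.2e-09). Top2a, a mitotic topoisomerase, measured 93.0, 94.7 and 95.4 RPKM against 31.2, 32.9 and 28.3 RPKM (1.62). Mki67, the usual proliferation marker, was not called, at 37.2, 34.1 and 34.2 RPKM against 19.8, 20.7 and 18.3 RPKM (0.84), but was called against the other Mlkl-/- intestines (1.06), where 16 of the 20 genes were. MEF library 2 was the highest MEF library for 15 of the 20.

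Imprinted growth genes did not move as a block, with 3 of 10 higher in MEFs, 1 higher in intestine and 6 not called. All 10 were at 1 CPM or more in all libraries, where 25% and 19.9% of genes were called in these directions. Cdkn1c, a growth-restraining cyclin kinase inhibitor, was lower in MEFs at 40.8, 30.7 and 27.1 RPKM against 805, 703 and 830 RPKM (log2 fold change -4.57 ± 0.165, edgeR adjusted p = 9.74e-09). Igf2, a fetal growth factor, measured 1632, 1161 and 1061 RPKM against 547, 534 and 516 RPKM (1.27, or 0.84 and not called with an offset for gene length). Its neighbor H19, which shares its control region, had the opposite sign without a call (-0.86). Grb10 and Peg3 rose by 2.58 and 2.86. MEF library 1 was the highest MEF library for 10 of the 10, against 34.7% of all tested genes. Both Cdkn1c and Igf2 lie on chromosome 7 and are expressed from a single parental copy, and their differences were in opposite directions.

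Hox genes, which mark position along the body axis, were called in both directions. In the A cluster 6 of 11 tested genes were higher in MEFs and 2 higher in intestine, and in the C cluster 6 of 8 were higher in MEFs and none in intestine. In the B cluster, 8 of 10 listed genes were tested, with 1 call each way, and in the D cluster 7 of 9, with 2 each way, beside 22.9% and 32% of all tested genes. Several calls came from genes below 1 CPM in some library. At 1 CPM or more in all libraries, calls higher in MEFs and in intestine numbered 4 and 2 of 8 genes in the A cluster, 1 and 1 of 8 in B, 2 and 0 of 4 in C and 0 and 0 of 3 in D, beside 25% and 19.9% of all such genes. Without MEF library 3 the B cluster had 7 calls in all in place of 2. In the A cluster Hoxa4 and Hoxa5 were higher in intestine (-1.96 and -1.68), and Hoxa7, Hoxa9, Hoxa10, Hoxa11 and Hoxa13 made up 5 of the 6 higher in MEFs. Hoxb5, known from gut mesenchyme and nerves, measured 2.11, 1.54 and 2.51 RPKM against 16.8, 11.9 and 17.9 RPKM (-2.93). Hoxb9, the call in the other direction, measured 16.8, 21.5 and 24.5 RPKM against 3.86, 3.50 and 3.07 RPKM (2.59).

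The D cluster was divided, with Hoxd3 and Hoxd4 higher in intestine (-1.55 and -1.18), Hoxd12 and Hoxd13 higher in MEFs (2.26 and 4.27), and Hoxd8, Hoxd9 and Hoxd10 between them not called. The D cluster had no call higher in intestine under glmTreat or under the filter at a mean of 50 reads. Hoxc10 measured 12.8, 12.8 and 6.73 RPKM in MEFs and 0.787, 0.597 and 0.322 RPKM in intestine (log2 fold change 4.24 ± 0.347, edgeR adjusted p = 2.36e-06). Hoxd13, a gene of the digits and the hindgut, measured 18.45, 23.7 and 8.18 RPKM against 1.06, 0 and 1.52 RPKM. MEF library 3 was lowest for both, and for Hoxa10, Hoxa11 and Hoxa13 as well. Hoxc11 was called (2.75) although its groups overlapped, at 1.59, 1.66 and 0.0476 RPKM against 0.163, 0.0980 and 0.234 RPKM, and it lost the call with voom, under glmTreat and without MEF library 2, intestine 1 or intestine 2. Intestine 2 had 0 reads of Hoxd13 and the lowest Hoxa13, at 0.120 RPKM beside 0.759 and 1.38 RPKM. Hoxb13, a marker of the hindmost gut, was below the filter, at 4.45 and 5.28 RPKM in intestines 1 and 3 and 0.0449 RPKM in intestine 2. For Hoxa13, Hoxb13 and Hoxd13 alike, intestine 2 was the lowest of the intestines.

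**Figure D5:**
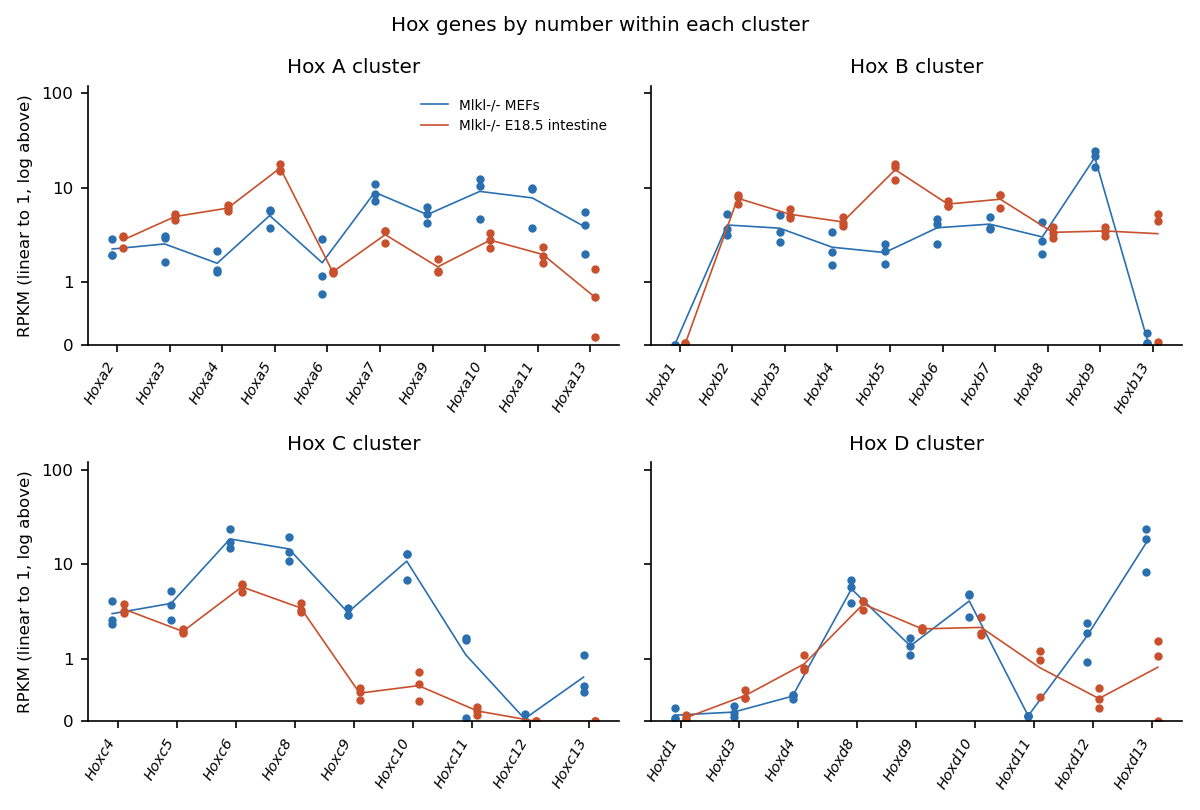
RPKM (linear to 1, log scale above) of Hox genes of each cluster, ordered by number, in the 3 Mlkl-/- MEF libraries (blue points) and 3 Mlkl-/- intestines (orange points), with lines through the group means. The blue line lies above the orange one from Hoxa7 to Hoxa13 and from Hoxc5 on, and below it from Hoxb2 to Hoxb7. Hoxd13 reaches 23.7 RPKM in MEFs and 1.52 in intestine.

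Markers of other cells of the organ were mostly higher in intestine. Goblet cell genes summed to 0.0101 to 0.358 RPKM in MEFs and 1044 to 2208 RPKM in intestine, with all 7 higher in intestine, and intestine 3 was the highest library for 7 of 7. All 10 enteroendocrine genes were higher in intestine. None of the goblet, enteroendocrine or erythroid genes was at 1 CPM or more in all libraries, so they could pass the filter through the intestine alone and these counts are a description only. Endothelial genes, 3 of them at 1 CPM or more in all libraries, were higher in intestine for 6 of 6 (summed 6.10 to 8.90 against 75.9 to 83.4 RPKM), and erythroid genes for 7 of 7 (0.0550 to 0.225 against 804 to 1728 RPKM). Enteric neuron and glia genes were higher in intestine for 5 of 9 tested and smooth muscle genes for 6 of 10, beside 32% of all tested genes. Acta2, which cultured fibroblasts also make, was the single smooth muscle gene called higher in MEFs here, at 1648, 1735 and 2631 RPKM against 754, 764 and 823 RPKM (1.36). Myh11, a myosin that marks mature smooth muscle, fell by 3.50, from 124, 143 and 144 RPKM to 10.3, 6.95 and 19.02 RPKM. Against the other Mlkl-/- intestines described at the end, 4 smooth muscle genes were higher in MEFs and 5 higher in intestine, with Tagln, Lmod1 and Smtn (0.90, 0.81 and 0.74 here) passing the threshold at 1.28, 1.44 and 1.03 and Cnn1 (-1.62 here) no longer called. MEF library 3 and intestine 3 were each the highest of their group for 9 of the 10.

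Macrophage genes were read in both groups, at a summed 49.4 to 64.5 RPKM against 170 to 186 RPKM. Of 10 macrophage genes, 6 were higher in intestine, beside 32% of all tested genes. Csf1r, the growth factor receptor of these cells, measured 3.35, 2.08 and 2.12 RPKM in MEFs and 52.7, 53.5 and 50.1 RPKM in intestine (-4.36). The complement gene C1qa measured 8.06, 6.03 and 5.27 RPKM against 46.9, 42.4 and 38.9 RPKM. T and NK cell genes summed to 0.356 to 1.01 against 1.43 to 2.38 RPKM and neutrophil genes to 0.0922 to 0.301 against 5.13 to 32.9 RPKM. Several inflammasome and interferon genes are known from such immune cells as well as from epithelium, and the share of each cell type in their difference was not tested. All 4 hepatocyte genes were higher in intestine, but none was at 1 CPM or more in all libraries. They could pass the read filter through the intestine alone, so this count is a description only. Pancreatic genes summed to 11.8 to 47.0 RPKM in the intestines and to no more than 0.319 RPKM in MEFs. Adipocyte genes summed to 90.0 to 110 RPKM in intestine and 7.88 to 47.2 RPKM in MEFs, a difference that Fabp4 carried, while Adipoq and Plin1 had 0 intestine reads and 214 and 169 MEF reads.

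Genes of muscle, cartilage and bone were read mainly in MEFs. All 5 tested skeletal muscle genes were higher in MEFs, but 1 of them was at 1 CPM or more in all libraries, so the others could pass the read filter through the MEFs alone and this count is a description only. Myog, a factor of differentiating muscle, measured 6.63, 5.10 and 7.14 RPKM with 0 reads in intestine, at least 194-fold higher. Of 6 tested cartilage and bone genes, 5 were higher in MEFs, and 1 of the 2 at 1 CPM or more in all libraries was. Runx2, a factor of bone cells, measured 8.71, 7.35 and 7.96 RPKM against 0.430, 0.489 and 0.501 RPKM (4.08). Keratinocyte genes were low in both groups, at a summed 1.78 to 4.09 and 4.30 to 5.02 RPKM, and of 4 mesothelial genes 1 was higher in intestine.

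The intestinal stem cell list was mixed, with 3 of its 6 genes higher in intestine and 1 in MEFs, beside 32% and 22.9% of all tested genes. Olfm4, a crypt gene, had 0 MEF reads and 27.9, 27.0 and 32.8 RPKM in intestine. Lgr5, a Wnt target that marks crypt stem cells, was higher in MEFs, at 8.18, 18.2 and 20.3 RPKM against 2.70, 2.29 and 2.43 RPKM (log2 fold change 2.65 ± 0.306, edgeR adjusted p = 2.79e-05). MEF library 1 was the lowest MEF library, and it was still above every intestine.

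Some genes often used as references were called. Of 15, 14 were tested, with 2 higher in MEFs, 2 higher in intestine and 10 not called, beside backgrounds of 22.9% and 32%. Polr2a, the large subunit of RNA polymerase II, measured 64.3, 64.3 and 71.1 RPKM in MEFs and 19.4, 20.1 and 18.97 RPKM in intestine (1.77). Gusb, a lysosomal enzyme, measured 34.2, 31.6 and 30.1 RPKM against 120, 111 and 107 RPKM (-1.82). The other called references, Ppia and Pgk1, have many near-identical copies, so their reads are uncertain. Both lost their calls without MEF library 1 or intestine 1, and Ppia had the opposite sign against the other Mlkl-/- intestines (-0.62). Mitochondrially encoded transcripts were higher in intestine for 11 of 13, beside 32% of all tested genes, with a median of -2.51. Their summed level was 14110 to 18808 RPKM in intestine against 4257 to 4872 RPKM in MEFs. Only 7 were at 1 CPM or more in all libraries, with 5 higher in intestine, beside 19.9% of all such genes. Under other processing the 11 calls numbered as few as 8. Reads were kept only where they aligned uniquely, so these levels are uncertain. Replication-dependent histones, which lack long tails and are poorly captured in mRNA libraries, summed to 39.9 to 45.6 RPKM in MEFs and 113 to 133 RPKM in intestine.

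The same MEF libraries were set beside 3 more Mlkl-/- intestines, controls of embryos with a catalytically inactive caspase-8. Because this contrast reuses the MEF libraries, its values are given side by side and not as a separate test. It called 10270 of 18101 genes (56.7%), with 4197 higher in MEFs (23.2%) and 6073 higher in intestine (33.6%), and 8686 calls were shared with the comparison above. Calls higher in MEFs and higher in intestine numbered 5 and 5 for death receptor genes, 1 and 20 for inflammasome genes and 2 and 2 for NF-kB genes, where the comparison above had 5 and 5, 1 and 20, and 1 and 3. For interferon-stimulated genes, 4 were higher in MEFs and 16 in intestine, in place of 1 and 21. The added MEF calls were Ifit2, Irgm1 and Samhd1, and the genes no longer called higher in intestine were Isg15, Ifit3b, Gbp3, Bst2 and Xaf1.

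The values of single genes in these other intestines are given beside those above, with no test between the 2 sets of intestines. Ifit1 measured 10.9, 18.2 and 24.1 RPKM there. Isg15 measured 6.28, 15.5 and 20.3 RPKM, which overlapped its MEF values and gave a log2 fold change of 0.17. Cflar measured 6.40, 6.39 and 6.67 RPKM, and its fold change of 0.86 was then below the threshold. Casp1 (30.3, 41.7 and 39.7 RPKM, -6.47), Ifnlr1 (14.9, 16.6 and 20.2 RPKM, -6.96) and Sting1 (3.19, 3.56 and 3.21 RPKM, 2.94) were called in the same direction as above. For Mlkl itself the other intestines measured 0.975, 1.16 and 1.78 RPKM, below every MEF library.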

How the data were processed

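RNA of 3 Mlkl-/- MEF and 3 Mlkl-/- E18.5 intestine libraries was sequenced as single-end reads. GSNAP was the aligner and GRCm38 the build, and reads without a unique place were dropped by the authors. For each library they deposited raw counts over the exons of a gene, its width and an RPKM. The counting program, its annotation and its strand setting are not given in the sources used here, so overlapping and antisense genes cannot be separated. The labels name TruSeq for all libraries, and the study's methods a stranded TruSeq kit for intestines and a KAPA kit for these MEFs. Gene symbols and positions came from GENCODE M21, which matched 52489 of 52636 identifiers.

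The deposited counts were filtered with filterByExpr (minimum 10 reads, 15 in total), scaled by TMM and tested with the quasi-likelihood test of edgeR 4.0.16 (R 4.3.3, prior count 0.125), as MEFs minus intestine. P-values were adjusted by Benjamini-Hochberg over all tested genes, and a gene was called at a log2 fold change beyond 1 with an adjusted p under 0.05. RPKM was recomputed on the scaled library sizes. The deposited RPKM were 0.837 to 0.863 times these values in MEFs and 0.888 to 0.911 times in intestine. A bound for a gene without reads used a floor of 3 reads over the group, and exact 95% intervals cover counting error only. Totals of 19713382 to 32307629 reads per library left genes below the filter untested.

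The genes named were those the study deleted or edited, the 8 largest rises and 8 largest falls among genes with groups that did not overlap and at least 10 CPM in the higher group, and members of gene lists. Some listed genes are counted but not reported singly here. Members and lists were chosen with earlier results of these data known. The script was tested on simulated data. Alternatives were other scalings and read filters, DESeq2 1.42.0, limma 3.58.1 (voom), a prior count of 2, glmTreat, offsets for gene length, a replicate block, other sets of libraries in the fit and each library left out.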

Additional observations from a re-analysis of the deposited data

How the results depend on the processing

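Calls over all genes numbered 9436, 9604 to 9880 with each library left out, and 7093 to 11530 under the other alternatives, in each case within 1.5 times. The share of calls higher in MEFs stayed between 38.5% and 43.6%. Under a filter at a mean of 50 reads the genes tested in both fits shifted by a median of -0.11 on the log2 scale. Replicate numbers did not pair the libraries, with correlations of same-numbered deviations of -0.05, -0.15 and -0.08. A replicate block gave 9405 calls, of which 9371 were shared, and changed no call of a gene named here.

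Of 191 genes named and tested, 149 kept their direction and their side of the threshold under all alternatives, and 173 did so with each library left out. Cflar (log2 fold change 1.00) lost its call under glmTreat at that value, at 0.33 with an offset for gene length, at values from 0.86 to 0.97 under 7 other alternatives, and without MEF library 3 (0.97), intestine 1 (0.96) or intestine 3 (0.995). Bax was 0.99 under the filter at a mean of 50 reads and 0.996 on library totals. Casp9 was -0.98 without MEF library 3. Tyk2 was -0.96 without MEF library 2, -0.94 without MEF library 3 and -0.96 without intestine 1. Txnip was -0.97 without MEF library 1 and -0.92 without intestine 3. Hoxc11 was 2.38 without MEF library 2, 2.73 without intestine 1 and 2.49 without intestine 2, each time uncalled. Sharpin (-1.03 without intestine 3), H19 (-1.03 without MEF library 1), Lum (-1.12 without MEF library 1) and Irgm1 (1.03 without intestine 2) gained a call. Under glmTreat, which tests against the threshold itself, Casp9, Cflar, Hoxc11, Hoxd3, Hoxd4, Isg15, Nfkbib, Pgk1, Ppia, Tnfaip3, Txnip, Tyk2 and Xaf1 lost their calls. With an offset for gene length Fas (1.11), Hoxd10 and Tagln gained a call, and Bst2 (-0.56), Igf2 (0.84), Isg15, Nlrc5 (0.82) and Pgk1 (-0.72) also lost their calls.

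Signs turned for 5 genes. Against the other Mlkl-/- intestines Dcn was 0.13, Ddx58 0.16, Ifitm2 0.40, Isg15 0.17 and Ppia -0.62. With both groups of intestines pooled Ddx58 was 0.0522 and Ifitm2 0.11. With each library left out Ddx58 was between -0.20 and 0.0142, the last without intestine 2. With an offset for gene length Ifitm2 was 0.70. The causes were not tested.

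Among list counts, Hox B rose from 2 calls to 4 on library totals, with voom, against the other intestines and with both groups pooled, to 5 under the filter at a mean of 50 reads, and to between 3 and 7 with a library left out. Hox D fell from 4 to 2 under that filter and under glmTreat, and had 4 to 6 with a library left out. The inflammatory list fell from 12 to 6 under that filter, where fewer genes were tested. Reference genes fell from 4 to 2 under glmTreat, against the other intestines and with both groups pooled, and had 2 to 4 with a library left out (2 without MEF library 1 or intestine 1). Every other list whose calls were counted above stayed within 1.5 times in total. Counts by direction moved further in lists with few calls. Against the other intestines, calls higher in MEFs went from 1 to 4 for interferon-stimulated and smooth muscle genes, from 1 to 2 for the NF-kB list and from 0 to 1 for enteric neurons and glia. With both groups pooled they were 4 and 3 in the first 2 of these lists. Intrinsic apoptosis went from 2 to 1 on library totals and at a mean of 50 reads, and with length offsets class I presentation went from 1 to 0, smooth muscle from 1 to 2 and macrophages from 0 to 1. With a library left out, calls higher in intestine went from 1 to as many as 6 in Hox B, from 1 to 2 for imprinted genes and from 0 to 1 for fibroblast markers. Genes with few reads in both groups remained untested at this depth.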
